A study of Mus musculus with 4 samples.

Results

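The genes described here are 48 genes of the fibroblast: collagens, other matrix proteins, surface and marker proteins, and the actin and intermediate filament cytoskeleton. They were taken by name from a fixed list, 48 of the 21887 protein-coding genes considered, by a rule that uses no measured value, although the list was drawn up with results of these data known. For each gene, peaks of HA-tagged Fbxl10 were sought within 1 kb and within 5 kb of either end of the gene, called its borders, and inside it. A gene said below to have no peak has none within 5 kb of a border or inside. The list holds 13 collagens, 19 other matrix genes, 4 surface and marker genes and 12 cytoskeleton genes.

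Fibroblasts build the fibrous matrix of connective tissue. Collagen fibrils give it strength, elastic microfibrils let it recoil, and matricellular proteins such as thrombospondins and the CCN family tune how cells sense it. The contractile cytoskeleton of actin, tropomyosin and myosin pulls on this matrix, and serum, TGF-beta and mechanical load are known to switch on genes of both kinds. Fbxl10, also called Kdm2b, is a histone demethylase whose CXXC zinc finger binds CpG dinucleotides that lack methylation, and it is a subunit of a variant Polycomb complex.

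The cells were mouse embryonic fibroblasts (MEFs) of a gain-of-function model for HA-tagged Fbxl10. The induced group had received doxycycline at 1 µg/ml for 48 hours to switch the tagged protein on, and the non-induced group was the same kind of MEF without it. Both groups carry the same genotype label, and the sources used here do not give the mouse strain, the age of the embryos or the promoter behind the tagged gene. Chromatin was precipitated with an HA antibody and sequenced, and 1 peak list per group was analysed. The protocol speaks of 3 independent ChIP-seq samples without saying how they relate to these lists. The antibody reads the tag, so the cells' own untagged Fbxl10 was not measured. Peak lists hold no expression values, so the identity of the cells could not be checked from them.

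There were 5497 induced peaks and 10532 non-induced peaks. Each peak carries a score written by the authors' peak caller, from 50 upward, and no read counts, so depth is unknown. A score ranks peaks within its list, and whether both lists share a scale was not tested. With 1 list per group there is no replicate error and no test of a difference between conditions, so the values below describe these lists. Each interval is an exact (Clopper-Pearson) 95% one and covers only the error of counting.

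The promoters shown first were picked by peak score and by CpG among the 32 listed genes with a promoter window. They are the 5 with the highest induced peak over their own start, at Nes, Col4a1, Col4a2, Ccn1 and Tpm1, then Tpm4 and S100a4, which among the listed genes with no induced peak within 5 kb or inside had the most and the fewest CpG. Each is 300 bases of the RefSeq table (GRCm38.p6), 250 before and 50 after the start of transcription, read 5′ to 3′ in the direction of the gene, and capitals mark each CpG, the dinucleotide that the CXXC finger is known to bind.
Nes promoter, chr3:87970843-87971142, plus strand: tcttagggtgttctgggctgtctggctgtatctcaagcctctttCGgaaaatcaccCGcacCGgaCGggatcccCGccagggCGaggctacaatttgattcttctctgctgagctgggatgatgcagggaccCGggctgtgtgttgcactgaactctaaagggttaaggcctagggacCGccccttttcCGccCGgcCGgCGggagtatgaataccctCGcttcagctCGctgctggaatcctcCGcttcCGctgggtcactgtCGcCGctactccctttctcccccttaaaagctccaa
Col4a1 promoter, chr8:11312777-11313076, minus strand: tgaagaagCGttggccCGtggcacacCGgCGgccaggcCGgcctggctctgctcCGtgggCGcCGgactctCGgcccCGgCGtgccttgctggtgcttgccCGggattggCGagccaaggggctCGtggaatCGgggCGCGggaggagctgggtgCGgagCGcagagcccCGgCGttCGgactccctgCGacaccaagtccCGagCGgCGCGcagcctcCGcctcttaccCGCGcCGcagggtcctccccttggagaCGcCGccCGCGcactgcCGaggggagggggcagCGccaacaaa
Col4a2 promoter, chr8:11312555-11312854, plus strand: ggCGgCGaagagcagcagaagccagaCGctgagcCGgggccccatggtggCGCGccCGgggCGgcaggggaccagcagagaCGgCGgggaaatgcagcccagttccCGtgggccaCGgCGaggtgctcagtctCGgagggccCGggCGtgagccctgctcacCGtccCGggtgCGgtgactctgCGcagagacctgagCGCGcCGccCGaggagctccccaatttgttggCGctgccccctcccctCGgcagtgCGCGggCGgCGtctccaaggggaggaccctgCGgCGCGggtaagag
Ccn1 promoter, chr3:145649936-145650235, minus strand: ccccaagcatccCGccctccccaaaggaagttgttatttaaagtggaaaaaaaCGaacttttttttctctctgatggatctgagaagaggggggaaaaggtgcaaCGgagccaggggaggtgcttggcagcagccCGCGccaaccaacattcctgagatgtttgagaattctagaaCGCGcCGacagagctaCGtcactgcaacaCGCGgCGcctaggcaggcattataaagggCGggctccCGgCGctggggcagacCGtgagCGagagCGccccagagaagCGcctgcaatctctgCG
Tpm1 promoter, chr9:67049164-67049463, minus strand: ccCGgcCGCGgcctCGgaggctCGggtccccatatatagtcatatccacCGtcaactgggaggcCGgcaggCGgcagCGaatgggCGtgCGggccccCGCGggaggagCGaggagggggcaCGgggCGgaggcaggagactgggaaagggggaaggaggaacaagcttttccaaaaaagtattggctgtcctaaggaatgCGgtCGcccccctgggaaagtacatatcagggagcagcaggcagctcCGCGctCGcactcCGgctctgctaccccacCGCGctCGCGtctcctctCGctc
Tpm4 promoter, chr8:72135038-72135337, plus strand: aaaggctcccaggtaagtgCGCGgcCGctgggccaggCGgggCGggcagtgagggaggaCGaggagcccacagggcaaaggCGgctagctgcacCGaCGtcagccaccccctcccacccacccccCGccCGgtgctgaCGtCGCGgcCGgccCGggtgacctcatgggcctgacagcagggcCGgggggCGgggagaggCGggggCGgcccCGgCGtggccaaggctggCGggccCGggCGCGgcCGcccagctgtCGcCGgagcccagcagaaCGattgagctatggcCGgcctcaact
S100a4 promoter, chr3:90603520-90603819, plus strand: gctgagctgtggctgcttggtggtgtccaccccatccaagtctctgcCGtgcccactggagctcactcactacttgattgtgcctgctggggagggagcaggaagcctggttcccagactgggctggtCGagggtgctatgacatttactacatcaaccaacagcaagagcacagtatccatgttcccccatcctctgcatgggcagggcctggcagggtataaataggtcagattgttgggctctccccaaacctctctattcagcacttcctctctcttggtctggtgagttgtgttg

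The Nes window held 18 CpG, that of Col4a1 37, that of Col4a2 33, that of Ccn1 20 and that of Tpm1 27, where the median over 17492 protein-coding genes was 13. All 5 of these windows, picked by peak score, were above that median. Those of Col4a1 and Col4a2 overlap and share 1 peak, and Thbs1, with a peak score of 207, has no window. Over the 32 listed genes with a window the median was 10.5. The Tpm4 window held 31 and had no induced peak, and the S100a4 window held 2. Of the other genes, Col5a1 (34), Timp3 (24) and Fbn1 (14) were also above the median and had an induced peak within 1 kb. Col6a1 (3), Col6a3 (3) and Postn (4) were below it and had no induced peak within 5 kb or inside. In other genes the reverse held. Actg1 (gamma-actin) had 50, a number that 1.07% of promoters reach, and its induced peak lay 1495 bp outside the gene. Timp2 (25) and Tpm2 (20) had no induced peak within 5 kb, while Vim (11) and Fbln2 (10) had one within 1 kb. A comparison of CpG over the whole list is void, since 32 of the 48 genes (66.7%) had a window.

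Of 4 short motifs searched on both strands, the GC box core GGGCGG was in the windows of Nes (2 matches), Col4a1 (1), Col4a2 (3), Ccn1 (2), Tpm1 (1) and Tpm4 (5), and in 46.3% of all 17492 windows. Other listed windows held it too, both with an induced border peak (Col5a1, 2 matches) and without one (Col8a1, 4). The TATA motif TATAAA was in those of Ccn1 and S100a4 (1 match each) and in 13.3% of all. Outside the windows shown it was in those of Vim, which had an induced border peak, and of Col3a1, Thbs2 and Tnc, which had none. GGAATG, the core bound by TEAD factors, was in those of Ccn1 and Tpm1 (1 match each) and in 13.5% of all. It was also in those of Col3a1, Acta2 and Cald1 (1 match each), none of which had an induced border peak. The CArG box, the site of serum response factor, was in none of the 7 but in those of Myl9 and Actg1 (1 match each), and in 1.55% of all. A CArG box can contain TATAAA, which neither of these windows held. These are matches of letters in the windows and no more.

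Induced peaks lay at the borders of a larger part of the listed genes than of all genes. Of the 48 genes 16 (33.3%, interval 20.4 to 48.4) had an induced peak within 1 kb of a border, beside 13.4% of all protein-coding genes, and 2 (4.17%) had a non-induced peak there, beside 1.59%. The 16 genes had 16 different induced peaks, since Col4a1 and Col4a2 share 1 and Ccn1 has 2, while the 2 genes with a non-induced peak share a single peak. A border peak with a score of at least 100 was at 8 of the 48 (16.7%), beside 4.25% of all genes. Among genes with an induced border peak, that is 8 of the 16 listed ones (50%, interval 24.7 to 75.3), beside 31.7% of all 2930, a share within that interval. The shared peak of Col4a1 and Col4a2 counts for both genes here. No test was made of these shares, because of how the list was drawn up. By group, 4 of 13 collagens (30.8%), 8 of 19 other matrix genes (42.1%), 1 of 4 surface and marker genes (25%) and 3 of 12 cytoskeleton genes (25%) had an induced border peak. The intervals of the groups overlap widely. Those of collagens (9.09 to 61.4), surface and marker genes (0.631 to 80.6) and cytoskeleton genes (5.49 to 57.2) contain the 13.4% of all genes. That of other matrix genes (20.3 to 66.5) lies above it. All listed genes are autosomal, and over autosomal genes alone the background was 14.2% induced and 1.67% non-induced.

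**Figure D1:**
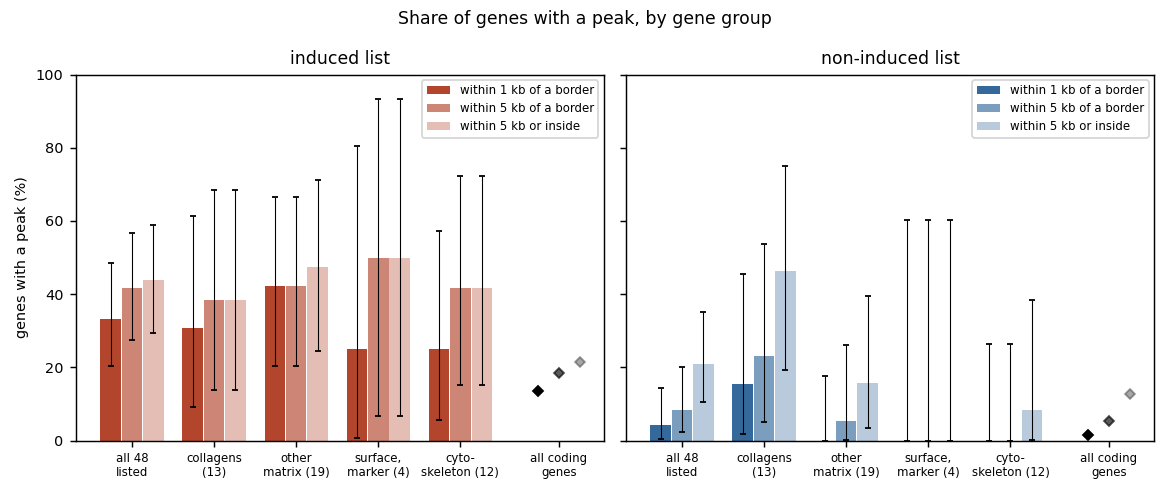
Share of genes with a peak (%) in the induced list (left) and the non-induced list (right), for all 48 listed genes and for each group, with 3 rules from dark to light; bars carry exact 95% intervals and diamonds give all protein-coding genes. Within 1 kb of a border the 48 genes stood at 33.3% induced and 4.17% non-induced, beside 13.4% and 1.59% of all genes.

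With a window of 5 kb, 20 of the 48 (41.7%) had an induced peak, beside 18.4% of all genes, and 4 (8.33%) a non-induced one, beside 5.36%. Counting also peaks deeper inside the gene, 21 (43.8%) had an induced peak, beside 21.4%, and 10 (20.8%) a non-induced one, beside 12.7%. By that widest rule 6 genes had peaks of both lists (12.5%, beside 4.09% of all genes). These were Col4a1, Col4a2, Col5a1, Col12a1, Fn1 and Thbs1. The background is not matched for length, and all of these genes but Fn1 and Thbs1 are over 100 kb long. By this rule 47.4% of all genes of at least 100 kb had a non-induced peak, beside 4.14% of those under 10 kb. At 23 genes (47.9%, beside 70.1%) neither list had a peak.

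The 4 collagens with an induced border peak were those of the basement membrane pair and of 2 chains found in or on fibrils. Col4a1 (chromosome 8, 11198423 to 11312889) and Col4a2 (11312805 to 11449287) encode the chains of the collagen IV network under epithelia and vessels, and they start side by side and run in opposite directions. One induced peak, from 11312094 to 11313621 and 1528 bp wide, covered both starts, with its midpoint 32 bp inside Col4a1 and 52 bp inside Col4a2. Its score of 231 ranked 81 of 5497.

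The same promoter held the single site of the list that both peak lists shared. A non-induced peak from 11313138 to 11313682, 545 bp wide and with a score of 56.6 (rank 6788 of 10532), overlapped the induced one, as happened within 1 kb of 0.233% of all protein-coding genes. It lay on the Col4a2 side, 333 bp inside Col4a2 and 249 bp outside Col4a1. The non-induced peak is low in its list, and once both lists were limited to scores from their joint median of 61.6 upward, or to the 5497 highest peaks, neither gene had a non-induced peak within 1 kb.

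Col5a1, whose collagen V starts collagen fibrils and limits their width, had an induced peak over its start (chromosome 2, 27886376 to 27887055, score 61.4). Its non-induced peak lay elsewhere, 22.9 kb inside the gene (27909285 to 27910044, score 73.0). Col12a1, of the collagen XII that decorates fibrils, had a low induced peak 827 bp inside its upper coordinate end (chromosome 9, 79719721 to 79720314, score 51.4). Its non-induced peak lay near the other end, 2.23 kb inside (79601221 to 79601787, score 53.7). In these 2 genes the lists therefore marked different places.

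Of the other 9 collagens, 1 (Col3a1) had an induced peak within 5 kb and none had one elsewhere inside. Col1a1 and Col1a2, of the collagen I that makes up most of the fibril mass, had no peak of either list within 5 kb or inside. The nearest induced peak was 38.3 kb from Col1a1 and 206 kb from Col1a2. Col3a1, of collagen III, had an induced peak 2.0 kb inside its start (chromosome 1, 45313538 to 45314115) whose score of 50.8 is close to the lowest in the list. Col5a2, the partner chain of Col5a1, had no induced peak and a non-induced one 12.9 kb inside (score 52.0).

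The collagen VI genes Col6a1, Col6a2 and Col6a3, whose chains form beaded filaments around cells, and Col8a1, a short-chain collagen of vessel walls, had no peak within 5 kb or inside in either list. Col11a1, of the thin fibrils of cartilage, had no induced peak and 3 non-induced ones. These lay 80.0, 40.9 and 35 kb from its nearest border (scores 53.3, 57.9 and 54.7), within a gene 190 kb long.

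**Figure D2:**
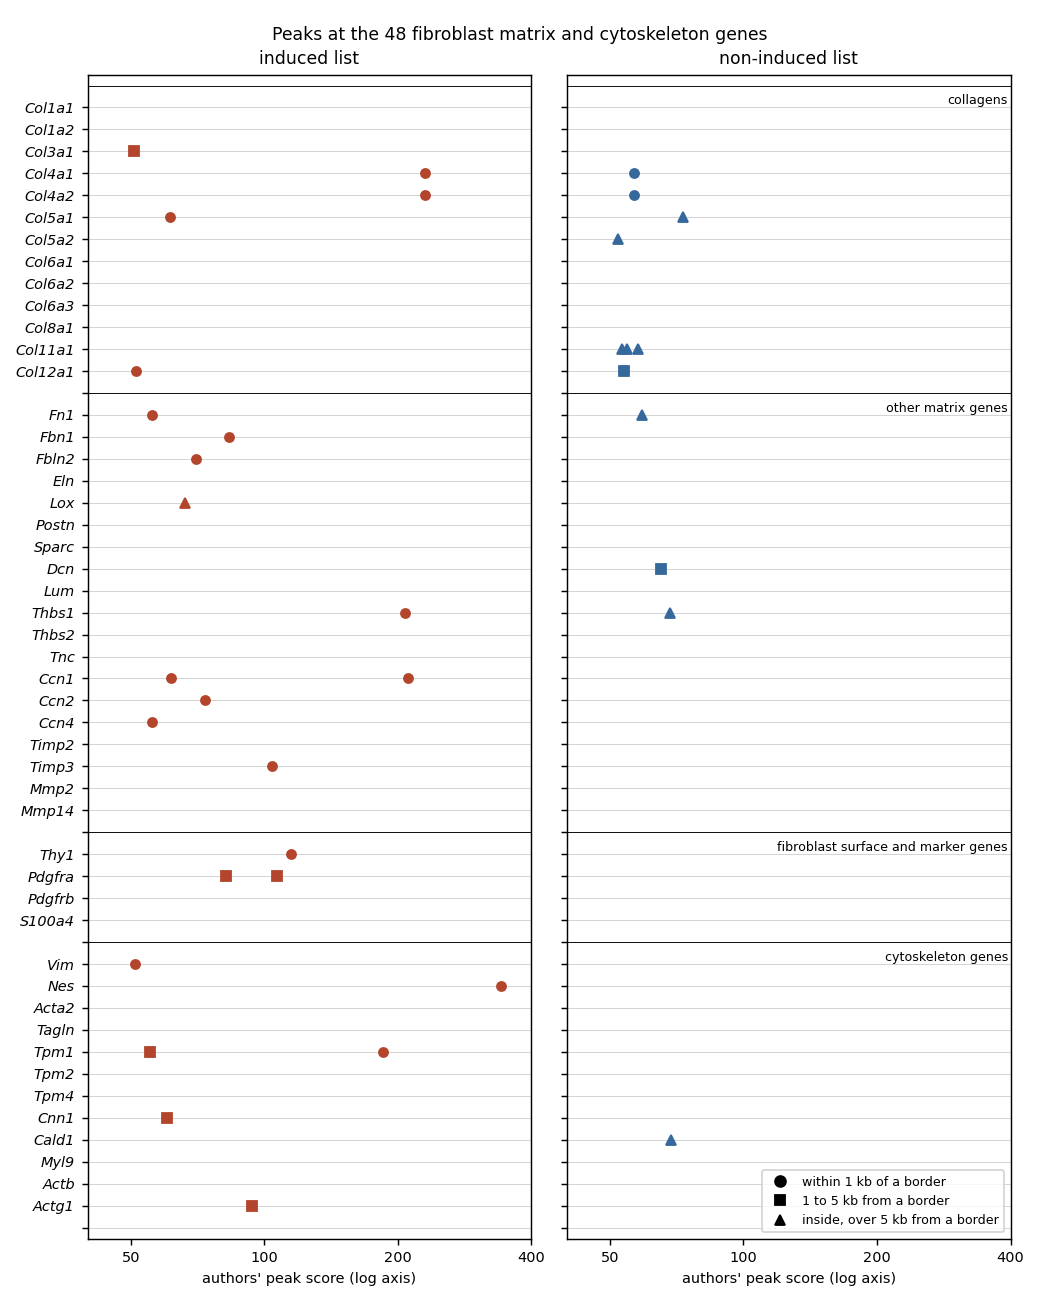
Score of each peak (log axis) within 5 kb of or inside each of the 48 genes, induced list left and non-induced list right; the symbol gives the place of the peak, and an empty line means no peak by this rule. Induced scores run up to 342 at Nes, and no non-induced score at these genes is above 73.0.

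The 8 other matrix genes with an induced border peak were Thbs1, Ccn1, Ccn2, Ccn4, Fbn1, Fbln2, Timp3 and Fn1. Thbs1 (chromosome 2, 118111876 to 118127133) encodes thrombospondin 1, a matricellular protein that activates latent TGF-beta. Its induced peak, from 118110676 to 118111775 and with a score of 207 (rank 133), ended 101 bp outside the lower coordinate end of the gene, and a long noncoding gene, Gm13986, also has a border within 1 kb of that peak. A non-induced peak with a score of 68.3 lay 7.39 kb inside Thbs1. Its relative Thbs2 had no peak in either list.

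All 3 CCN genes of the list had an induced peak within 1 kb of a border, beside 13.4% of all genes. None had a non-induced peak there, beside 1.59%. The CCN genes outside the list, Ccn3, Ccn5 and Ccn6, had no peak of either list within 5 kb of a border. Ccn1 (Cyr61; chromosome 3, 145646971 to 145649985) is an early response gene for growth factors and stretch. It had induced peaks at both ends, one over its start from 145649079 to 145650328 with a score of 211 (rank 116) and one 373 bp beyond its end from 145645902 to 145646598 with a score of 61.6. The long noncoding gene Gm17501 also has a border within 1 kb of the peak at the start. Of the 32 listed genes whose strand is known from the promoter table, it was the one with an induced peak at both ends, as were 0.732% of the 17492 genes with a strand.

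Ccn2, or connective tissue growth factor, had an induced peak inside its 3.24 kb, 806 bp from its upper coordinate end (chromosome 10, 24596821 to 24597877, score 73.5). Ccn4 had one over its lower coordinate end (chromosome 15, 66891162 to 66892009, score 55.9), where the long noncoding gene Gm46514 also has a border. Of the CCN genes Ccn1 therefore had the peak of highest score.

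Fbn1, of the fibrillin microfibrils that carry elastin, had an induced peak 34 bp inside its start (chromosome 2, 125505782 to 125506451, score 83.3). Fbln2, whose fibulin 2 binds fibrillin and basement membranes, had one 456 bp inside its start (chromosome 6, 91212916 to 91213612, score 70.1). Elastin itself, Eln, had none of either list, with the nearest induced peak 13.3 kb away. Timp3, a matrix-bound inhibitor of metalloproteinases, had one 25 bp inside its start (chromosome 10, 86300437 to 86301016, score 104), whereas Timp2 and the metalloproteinases Mmp2 and Mmp14 had none.

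Fn1, of fibronectin, lay just inside the window of 1 kb. Its induced peak was 842 bp outside its upper coordinate end (chromosome 1, 71654122 to 71654770, score 56.0), within 1 kb of a border of the long noncoding gene Apol7d, and a non-induced peak with a score of 59.1 lay 30.2 kb inside the gene. The closest induced peak just beyond 1 kb was that of Actg1 at 1495 bp. Lox, whose enzyme cross-links collagen and elastin, had an induced peak inside the gene, 5.2 kb from its nearest border (score 66.3), so that it counts by the widest rule alone. Dcn, of the fibril-binding proteoglycan decorin, had no induced peak and a non-induced one 1.32 kb inside (chromosome 10, 97480824 to 97481598, score 65.1). Lum, Postn, Sparc and Tnc, of lumican, periostin, SPARC and tenascin C, had no peak in either list.

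Of the surface and marker genes, Thy1 and Pdgfra had induced peaks and none had a non-induced peak. Thy1, a membrane-anchored glycoprotein used to sort fibroblasts, had one 290 bp inside its lower coordinate end (chromosome 9, 44043674 to 44044527, score 115). Pdgfra, the alpha receptor for platelet-derived growth factor, had a pair inside the gene, 1.91 and 2.91 kb from its annotated border (chromosome 5, 75153231 to 75153984 and 75154235 to 75155120, scores 82.0 and 107). Measured from the transcription start that its RefSeq promoter window is built on, the nearer of them was 980 bp away, so the place of Pdgfra beside the limit of 1 kb depends on which start is used. Pdgfrb, the beta receptor, and S100a4, a calcium-binding protein used as a fibroblast marker, had no peak in either list.

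Of the 12 cytoskeleton genes, 3 had an induced border peak (Nes, Vim and Tpm1). Nes (chromosome 3, 87971093 to 87980451), which encodes nestin, an intermediate filament protein of progenitor cells, had the highest and widest induced peak among the 48 genes. It ran from 87969926 to 87972640 (2715 bp), covered the start with its midpoint 190 bp inside, and its score of 342 ranked 17 of 5497. The nearest non-induced peak was 186 kb away. Vim, of the main intermediate filament of fibroblasts, also had a peak over its start (chromosome 2, 13574250 to 13574905), but with a score of 51.0 it ranked 5229.

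Tpm1 (chromosome 9, 67022590 to 67049672), a tropomyosin that lies along actin filaments, had an induced peak of 1696 bp over its start (67048461 to 67050156, score 185, rank 203). A second one lay 3.94 kb inside (67045105 to 67045728, score 55.4). Tpm2 and Tpm4 had none within 5 kb or inside. Among the tropomyosin genes of the list the peaks were thus at Tpm1.

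Of the remaining 7 cytoskeleton genes, Actg1 and Cnn1 had an induced peak within 5 kb. Actg1 had an induced peak 1495 bp upstream of its start (chromosome 11, 120349990 to 120350761, score 94.0), next to a border of the long noncoding gene 0610009L18Rik. Cnn1, or calponin 1, had one 2.88 kb upstream (chromosome 9, 22095574 to 22096338, score 60.3). Actb, Acta2, Tagln and Myl9, of beta-actin, smooth muscle actin, transgelin and a regulatory myosin light chain, had no peak in either list. Cald1, of caldesmon, had a non-induced peak 74.2 kb inside the gene (chromosome 6, 34672666 to 34673198, score 68.7) and no induced one.

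Induced peaks lay at gene starts rather than gene ends. Of the 32 listed genes with a known strand, 10 (31.2%) had an induced peak within 1 kb of the start and 1 (3.12%) within 1 kb of the end, beside 12.7% and 1.62% of the 17492 genes with a strand. Non-induced peaks were at the start of 2 of the 32 (6.25%) and at the end of 0, beside 0.863% and 0.8%. The midpoints of the induced start peaks lay inside the gene in all 10, from 32 bp at Col4a1 to 804 bp at Fbln2. For Col12a1, Fn1, Thbs1, Ccn2, Ccn4 and Thy1 no strand was given, so it is not said here which of their ends is the start.

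**Figure D3:**
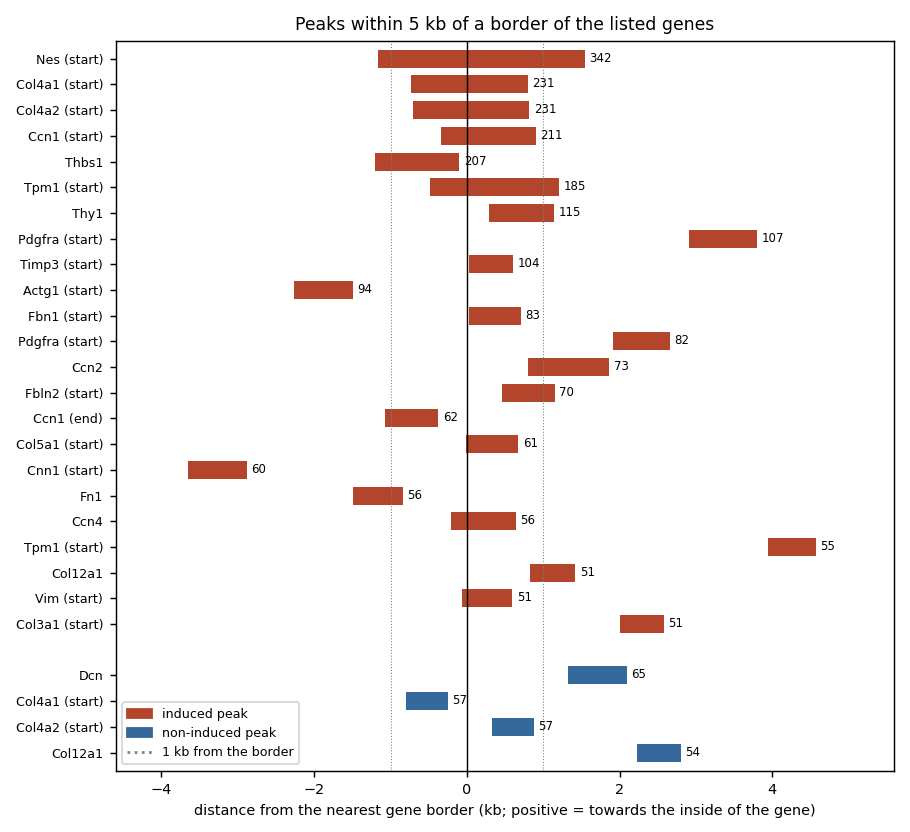
Each bar is a peak within 5 kb of a border of a listed gene, drawn to scale by its distance from the nearest border (kb, positive towards the inside of the gene), induced peaks above and non-induced peaks below, with the score beside it; the end is named where the strand is known. The widest bar is the induced peak of Nes (2715 bp), and both Col4a rows of each list show the same peak.

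The induced peaks at these genes were about as high as the border peaks of the list as a whole. The median score of the 16 different induced peaks within 1 kb was 78.4 (range 51.0 to 342) and their median width 773 bp (580 to 2715), beside 78.6 and 864 bp for all 2591 induced peaks within 1 kb of a protein-coding gene. Of these 16 peaks, those at Nes, Col4a1 with Col4a2, Ccn1, Thbs1 and Tpm1 stood apart at 185 or more, and the next was that of Thy1 at 115. The 11 different non-induced peaks within 5 kb of or inside a listed gene had a median score of 57.9 (52.0 to 73.0) and a median width of 570 bp, beside 60.2 and 586 bp over the whole non-induced list.

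**Figure D4:**
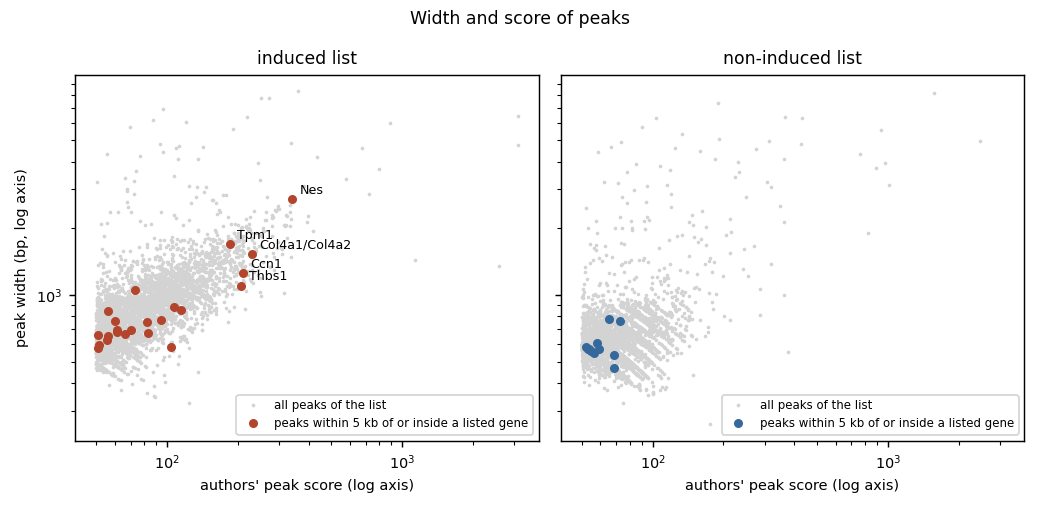
Width (bp, log axis) against score (log axis) of all peaks (grey) and of the peaks within 5 kb of or inside a listed gene (coloured), induced list left and non-induced list right. The 5 named induced peaks are both high and wide, and the non-induced peaks at listed genes stay at scores of 73.0 or less.

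Gene length went with the non-induced peaks inside genes. The listed genes are longer than usual, with a median of 28.3 kb beside 17.2 kb for all protein-coding genes, and those with a non-induced peak within 5 kb or inside had a median of 126 kb, beside 21.9 kb for those without. A peak inside the gene was found in 17 of the 48 (35.4%) by the induced list, beside 16.5% of all genes, and in 9 (18.8%) by the non-induced list, beside 10.2%. A peak that reaches into the gene at a border counts here as inside, so most of these induced peaks are the border peaks already described. Lox alone had its induced peak inside and over 5 kb from a border. Of the 9 listed genes of at least 100 kb, 6 (66.7%) had a non-induced peak inside, beside 45.8% of all genes of that length. Of the 12 under 10 kb, 0 had one, beside 1.05%. The limits of the length classes were set after the data were seen.

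For induced peaks the listed genes showed no even order by length, at borders or inside. Within 1 kb of a border, 5 of 12 genes under 10 kb had an induced peak (41.7%, beside 11.4% of all genes of that length), as did 2 of 13 from 10 to 30 kb (15.4%, beside 13.9%), 4 of 14 from 30 to 100 kb (28.6%, beside 15.7%) and 5 of 9 of at least 100 kb (55.6%, beside 13.7%). The genes from 10 to 30 kb were thus close to their background. Of the 5 genes of at least 100 kb with a peak, Col4a1 and Col4a2 share theirs. Induced peaks inside were at 5 of 12, 2 of 13, 5 of 14 and 5 of 9 listed genes of these classes, where all genes went up with length (10.6, 15, 20.4 and 31.7%). These are largely the border peaks counted again, and in the shortest and the longest class the genes are the same by both rules. Non-induced peaks within 1 kb of a border were at 1.55, 1.41, 1.71 and 1.93% of all genes of these classes.

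**Figure D5:**
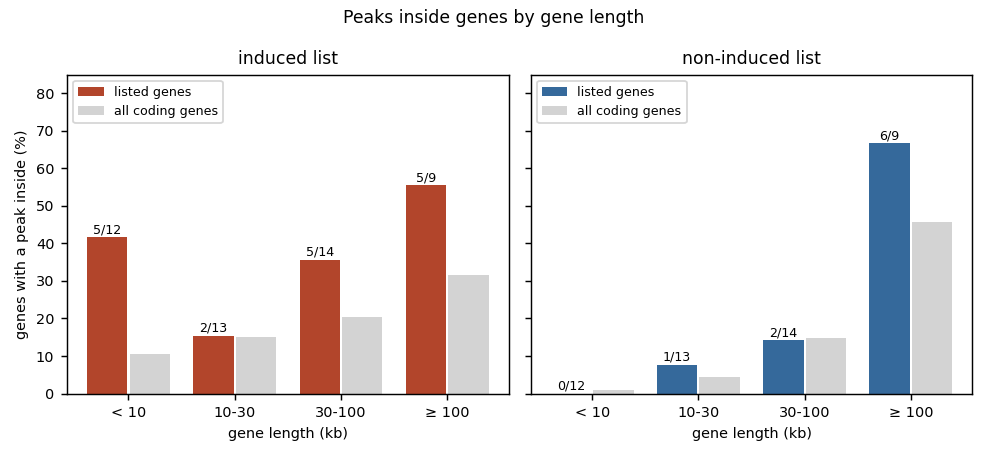
Share of genes with a peak inside the gene (%), by gene length, for the listed genes (coloured, with counts) and for all protein-coding genes (grey), induced list left and non-induced list right. A border peak that reaches into the gene counts as inside. In the non-induced list the share goes from 0 of 12 listed genes under 10 kb to 6 of 9 of at least 100 kb, and the grey bars from 1.05% to 45.8%.

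Related genes outside the list had induced border peaks at shares whose intervals overlap each other. The unlisted collagens and other matrix genes stood near the 13.4% of all genes, where the listed ones were at 30.8% and 42.1%. The unlisted cytoskeleton genes, at 26.9%, stood about where the listed ones did, at 25%, and their interval lies above 13.4%. In that group the higher share was thus not particular to the listed genes. The intervals of listed and unlisted genes also overlap. Of 31 other collagen genes 3 (9.68%, interval 2.04 to 25.8) had an induced peak within 1 kb, beside 13.4% of all genes. These were Col27a1 (score 206), Col2a1 (120.2) and Col23a1 (89.0), of which Col2a1, of cartilage collagen II, also had a non-induced peak (73.8). Of 64 other matrix genes 10 (15.6%, interval 7.76 to 26.9) had one, with the protease Adamts1 (174), the proteoglycan Vcan (151) and the laminin chain Lamc1 (99.5) highest. Of 52 other cytoskeleton genes 14 (26.9%, interval 15.6 to 41.0) had one, with Arpc2 of the actin-branching complex (127), the myosin Myh10 (88.4) and the calponin Cnn3 (84.7) highest. None of these matrix or cytoskeleton genes had a non-induced peak within 1 kb, where 1.59% of all genes had one.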

How the data were processed

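ChIP-seq with an HA antibody in MEFs was described by 4 libraries, 1 in each of 4 groups (ChIP and input, induced and non-induced). The 2 deposited ChIP peak lists were analysed and the inputs were not used here. The authors' deposited score per peak was used as it stands; the sources used here do not state its formula. The peak names begin with MACS, and Bowtie2 and mm10 are named, per the submitters' processing notes. Per the labels' protocols 3 independent ChIP-seq samples were made; how they relate to the 2 lists is not stated, so each list may stand for 1 sample or for several. Caller version, threshold and pooling: not given in the sources used here.

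Lists were matched to groups by the marks for with and without in their names and in the titles. Gene positions came from a RefSeq table of GRCm38.p6, whose coordinates are those of mm10, and strand and promoter sequence from a second RefSeq table, which matched 32 of the 48 genes. A distance is that from a border to the nearest base of a peak. The genes, the related lists and the alternatives were chosen with earlier results of these data known, and the rule was to name all 48, in full where a peak lay within 1 kb. The assignment of peaks to genes was tested on simulated peaks placed at known distances from gene borders. The authors' calling of peaks was not tested. Intervals came from SciPy 1.17.1, tables from pandas 2.3.3 with numpy 2.4.6 under Python 3.11.15, and figures from matplotlib 3.10.9.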

Additional observations from a re-analysis of the deposited data

How the results depend on the processing

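Limits of score moved the counts most. With scores of at least 100, an induced peak remained within 1 kb at 8 genes (beside 4.25% of all genes), within 5 kb at 9 (5.71%) and within 5 kb or inside at 9 (6.13%); within 1 kb it was at 2 collagens and 3 other matrix genes. No listed gene had a non-induced peak of that score by any rule (0, 0 and 0), beside 0.11%, 0.265% and 0.69% of all genes. The overlap at Col4a1 and Col4a2 was lost (0). At or above the joint median score of 61.6, 13 genes had an induced peak within 5 kb (beside 13.3%) and 2 collagens within 1 kb; 0, 1 and 4 genes had a non-induced peak within 1 kb, within 5 kb, and within 5 kb or inside (0.845%, 2.54% and 6.77%), with 0 overlaps. With lists of equal size these were again 0, 1 and 4, with 0 overlaps (0.914%, 2.87% and 7.59%).

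At gene starts alone, among genes with a strand, 10 of 32 had an induced peak, 4 of 10 other matrix genes and 0 of 2 surface and marker genes; fewer genes enter here. Within 10 kb, 7 had a non-induced peak (beside 9.01%). Within 5 kb, 3 of 31 other collagens, 3 of 64 other matrix and 1 of 52 other cytoskeleton genes outside the list had a non-induced peak (beside 5.36%). Under the remaining settings (midpoint of the peak, 500 bp, other overlaps, and starts of promoter windows, added after the data were seen) counts stayed within 1.5 times. CpG splits were not run, because 16 of the 48 genes lack a window. No paired analysis was possible because each group has 1 list. Depth is unknown.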

Other observations

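Some peaks lay just beyond 5 kb of a listed gene. An induced peak 7.24 kb past the end of Tpm4 (score 53.6) was within 1 kb of a border of Rab8a, a small GTPase gene, and a second one 7.49 kb past the end of Nes (score 58.5) was within 1 kb of a border of Bcan, which encodes the proteoglycan brevican. Col3a1 had a non-induced peak 6.3 kb upstream (score 82.5), and Lox one 5.22 kb away (score 51.1). For the 27 genes with no induced peak within 5 kb or inside, the nearest one lay between 7.24 kb (Tpm4) and 969 kb (Tagln) from the gene, with a median of 126 kb.

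Markers of other cell types were looked up by the same rule of 1 kb, which counts peaks and says nothing of expression. Of all protein-coding genes 13.4% had an induced and 1.59% a non-induced peak by this rule. An induced peak was at 2 of 8 blood genes (Klf1 and Cd14), 1 of 4 endothelial genes (Kdr), 1 of 4 epithelial genes (Cdh1), 0 of 4 neuronal genes and 0 of 4 skeletal muscle genes. No gene of these lists had a non-induced peak there.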
